A study of Ictidomys tridecemlineatus with 31 samples.

Results

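Tyrosine and phenylalanine are broken down in the kidney by enzymes whose mRNAs were followed here through the hibernation cycle of the 13-lined ground squirrel (Ictidomys tridecemlineatus). The 7 genes are Tat, Hpd, Hgd, Fah, Gstz1, Pcbd1, and Qdpr, out of 12863 genes in the table. Tat was chosen by its low values in interbout arousal against summer activity in these same animals, and the other 6 genes were added as enzymes or cofactor proteins of its pathway. All 7 were found by gene symbol, and where 2 rows carried the same symbol the row of the higher mean was taken. The difference between IBA and SA is therefore given for all 7 genes as a description without a test, and so is every difference of Tat that involves SA or IBA.

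The values come from 31 kidneys, each from 1 animal implanted with a device to record body temperature, of both sexes in each state, with no genetic change named in the labels. The animals were summer active (SA, 5), spring dark (SpD, 5), early arousing (EAr, 5), late arousing (LAr, 6), interbout aroused (IBA, 5), and entering torpor (Ent, 5). SA animals were fattening before hibernation, and SpD animals were warm but still in the dark hibernaculum after their last torpor bout. EAr and LAr animals were rewarming from torpor, IBA animals had rewarmed, and Ent animals were cooling into torpor again. RNA was taken from a fragment of each frozen kidney, and polyadenylated RNA was sequenced. Experiment 1 held 9 animals, 3 each of IBA, Ent, and SpD, and experiment 2 held the other 22 with another library kit, so that SA, EAr, and LAr came from experiment 2 alone. Animals are named here by the animal number of the labels. Animals 113 (LAr) and 137 (SA), which the study left out of its differential expression (DE) analysis, are shown apart, and fits used the other 29.

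Each value is a batch-corrected regularized log (rlog) value, a normalized count on the log2 scale, so that a difference of 1 corresponds to a doubling. The rlog transformation draws low counts together, and differences of low genes are understated by it. Counts are not part of the table, which leaves the sequencing depth of each animal unknown, and the values are not scaled by transcript length, so levels of different genes are not compared. State differences were estimated with limma in 1 model of state, sex, and experiment over all genes, with Benjamini-Hochberg adjustment within each comparison (q). A pair such as SpD/IBA is the first state minus the second. Genes with q under 0.001, the threshold of the study, are called, and counts at q under 0.05 are given beside them. The animals are separate individuals.

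Phenylalanine enters the pathway as tyrosine, and the cofactor tetrahydrobiopterin is oxidized when tyrosine is made from it. Pcbd1 and Qdpr return the cofactor to its working form. Tat, tyrosine aminotransferase, makes 4-hydroxyphenylpyruvate, which Hpd turns into homogentisate, and Hgd opens the ring of homogentisate to give maleylacetoacetate. Gstz1 isomerizes that product and Fah splits it into fumarate and acetoacetate, which can be burned or used to make glucose and ketone bodies. The liver is the best known site of the pathway, where Tat is a classic target of glucocorticoids and cyclic AMP, and proximal tubule cells of the kidney also carry many of its enzymes. Inherited loss of Fah, Tat, Hpd, or Hgd causes forms of tyrosinemia or alkaptonuria in people.

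Tat, the first and often the limiting enzyme of tyrosine breakdown, varied most among the 7 genes. In SA it read 11.55 (animal 138), 13.09 (139), 10.69 (140), and 9.05 (141), and animal 137 read 9.74. In IBA it read 7.37 (69), 6.80 (70), 7.65 (75), 6.52 (104), and 6.28 (171). All 5 SA animals lay above all 5 IBA animals, and the SA animals themselves were widely spread. Ent animals read 8.22 (62), 7.42 (64), 7.56 (66), 7.35 (155), and 8.62 (167). EAr animals read 7.27 (154), 6.69 (156), 6.78 (157), 7.0 (158), and 8.03 (165), and LAr animals 7.19 (109), 7.64 (111), 7.64 (112), 7.01 (115), and 8.12 (116), with 6.68 in animal 113. The ranges of Ent, EAr, and LAr overlapped each other. SpD was more uneven than these, with 10.64 (77), 8.76 (80), 7.88 (83), 6.71 (84), and 7.09 (130). In these corrected values animal 77 thus lay within the SA range, whereas animals 84 and 130 lay within the IBA range. Animal 77 came from experiment 1, however, and all SA animals from experiment 2. Animals 84 and 130, of experiment 2, lay above the IBA animals of that experiment (104 and 171). They fell in the IBA range only through IBA animals of experiment 1.

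Mean levels of Tat were 11.09 ± 1.69 in SA (SD, n = 4), 8.22 ± 1.57 in SpD, 7.83 ± 0.56 in Ent, 7.52 ± 0.44 in LAr, 7.16 ± 0.54 in EAr, and 6.92 ± 0.57 in IBA (n = 5 each). Neighbours in this order overlapped in every case. The fitted IBA/SA difference was -4.66 (SE 0.65), which is 25.3-fold lower in IBA, and it lay between -5.34 and -3.85 when each animal was left out in turn. That difference chose the gene and is not tested. The fitted differences of Tat for SA minus the mean of Ent, EAr, and LAr (3.76, SE 0.50), SA/SpD (3.37, SE 0.65), SpD/IBA (1.29, SE 0.55), Ent/IBA (0.91, SE 0.55), and IBA/LAr (-1.13, SE 0.62) share these animals and are also descriptions. SpD/IBA was 2.10 in experiment 1 taken alone and 0.35 in experiment 2 taken alone, where SpD is represented by animals 84 and 130. In a whole-kidney fragment, fewer cells of a type and less RNA per cell cannot be told apart.

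**Figure D1:**
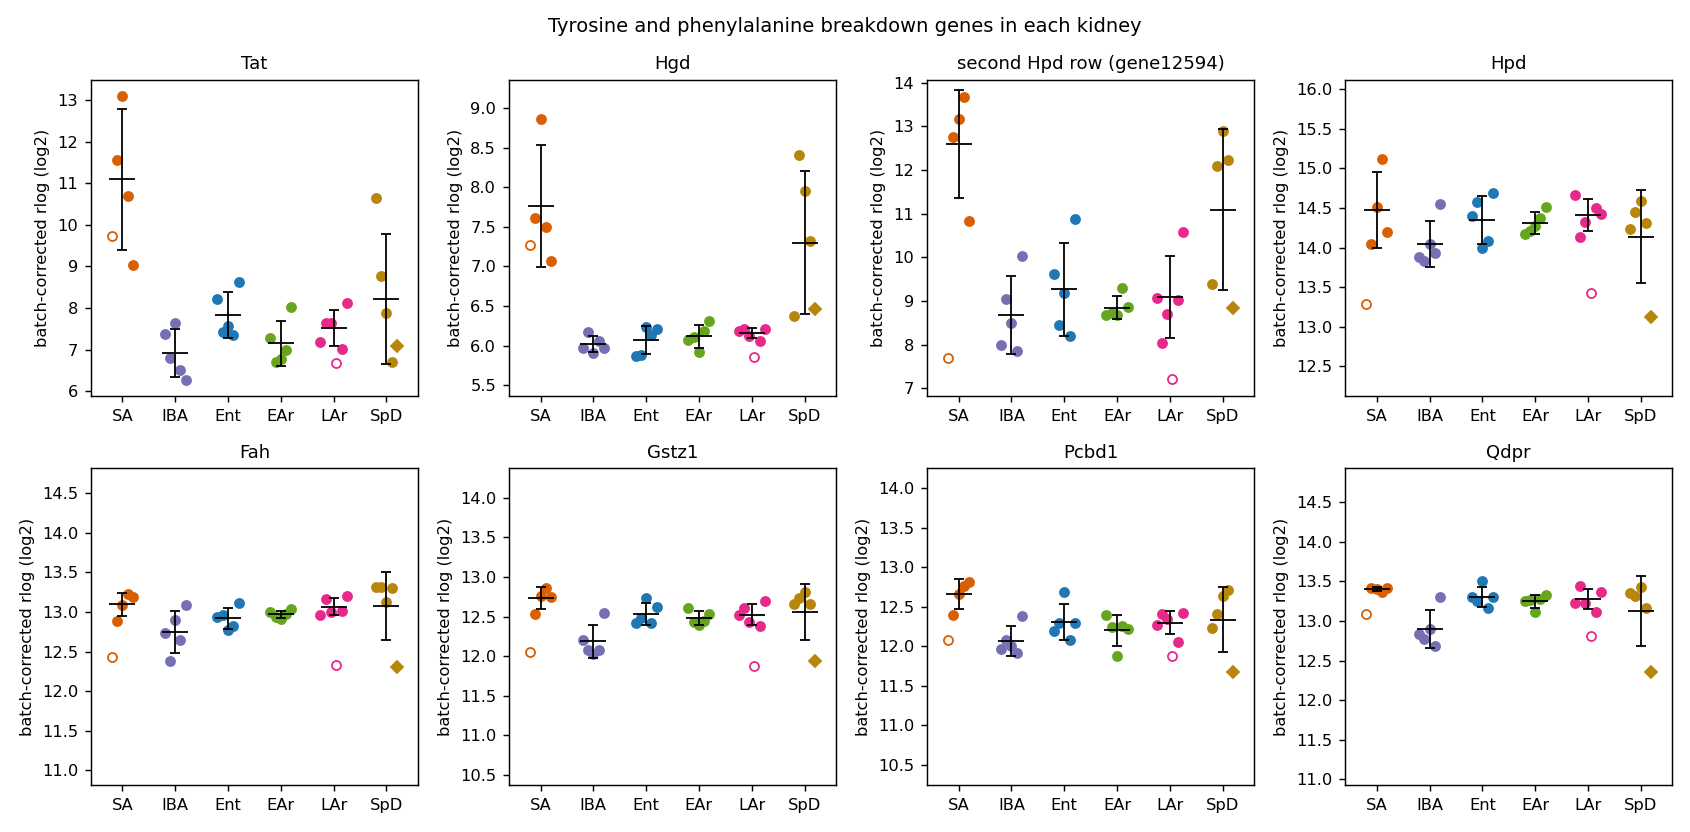
Batch-corrected rlog values (log2 scale) of the 7 genes and of the second Hpd row by state, 1 point per kidney, with the mean and SD of the 29 animals as black bars, hollow points for animals 113 and 137, and diamonds for SpD animal 130. Tat, Hgd, and the second Hpd row are spread over several log2 units with SA highest, whereas the state means of Hpd, Fah, Gstz1, Pcbd1, and Qdpr lie within 0.59 of each other and their lowest SpD point is animal 130; each axis has its own range.

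Comparisons that did not involve SA or IBA were tested for Tat. The fit still drew its estimate of spread from all states, and its term for experiment partly from IBA. The q values and intervals below are therefore not fully free of the values that chose Tat. SpD minus the mean of Ent, EAr, and LAr was 0.39 (SE 0.49, 95% interval -0.63 to 1.40, q = 0.593), EAr/Ent was -0.23 (interval -1.52 to 1.07, q = 0.94), and LAr/EAr was 0.45 (interval -0.70 to 1.60, q = 0.896). Across SpD, Ent, EAr, and LAr together Tat had q = 0.811. None of these passed a threshold, and the 3 intervals each include a doubling or a halving. Without SpD animal 130, which stood apart in other genes, the SpD difference was 0.75 (q = 0.409).

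The second step is carried by Hpd, and 2 rows of the table have this symbol, both assigned by the authors from a match to a human sequence. The row taken here (gene12596), the higher of the pair, was nearly level: state means ran from 14.05 ± 0.29 in IBA to 14.47 ± 0.48 in SA, a span of 0.43, and neighbouring states overlapped. Hpd passed no threshold in any tested comparison, with SpD minus the mean of Ent, EAr, and LAr at -0.27 (SE 0.20, q = 0.329) and SA minus that mean at 0.14 (SE 0.20, q = 0.635). The row set aside (gene12594) behaved differently and is given as a second Hpd row, an addition made after its values were seen. The gene12596 locus matched Hpd in the RefSeq annotation by its locus name, and the gene12594 locus did not match an entry. How reads of near-identical copies were split between these rows is not known, so the identity of the second row is uncertain.

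The second Hpd row read 12.76 (138), 13.16 (139), 13.67 (140), and 10.83 (141) in SA, but 7.70 in animal 137. It read 7.98 (69), 9.04 (70), 8.49 (75), 7.86 (104), and 10.04 (171) in IBA, and 12.09 (80), 12.91 (83), 12.24 (84), 9.38 (77), and 8.83 (130) in SpD. Thus 3 SpD animals lay in the SA range and 2 in the IBA range in these corrected values. Within experiment 1, however, animal 77 lay above IBA animals 69, 70, and 75, and SA came from experiment 2 alone. Ent animals spanned 8.20 to 10.88, EAr animals 8.67 to 9.29, and LAr animals 8.03 to 10.59, with 7.22 in animal 113. Since this row was added after its values were seen to differ, its q values are descriptions and not support for a change. SA minus the mean of Ent, EAr, and LAr was 3.53 (SE 0.64, q = 0.000237) in the 29 animals. In all 31 it was 2.68 (q = 0.00939), since animal 137 lies so low. When single animals of the 29 were left out, q was at most 0.00252. SpD minus the same mean was 2.03 (SE 0.62, q = 0.0187), 3.04 (q = 0.00303) without animal 130, and 1.38 (q = 0.209) in experiment 2 alone. SpD/IBA was 2.40 (SE 0.70, q = 0.0271), and it was 2.70 (q = 0.104) in experiment 1 and 1.29 (q = 0.513) in experiment 2.

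Hgd, the dioxygenase that opens the ring of homogentisate, lay near the low end of the table and read higher in the active states (SA and SpD) than in hibernation. It read 7.62 (138), 8.86 (139), 7.50 (140), and 7.07 (141) in SA, and 7.27 in animal 137. In SpD it read 8.41 (80), 7.96 (83), 7.32 (84), 6.37 (77), and 6.46 (130). In IBA it read 5.97 (69), 6.18 (70), 5.91 (75), 6.06 (104), and 5.97 (171). Ent animals spanned 5.87 to 6.24, EAr animals 5.91 to 6.30, and LAr animals 6.06 to 6.21, with 5.85 in animal 113. Every SA and SpD animal therefore lay above every animal of the 4 hibernation states in these corrected values, although SpD animals 77 and 130 did so narrowly. This also held within each experiment. In experiment 1 animal 77 lay above the highest hibernating animal (6.24, animal 66). In experiment 2 animal 130 lay above the highest one (6.30, animal 165). How many of all genes separate the states in this way was not counted. The study's filter, given below, kept genes that were high in some group, so this separation is a description. Mean levels were 7.76 ± 0.77 in SA, 7.30 ± 0.90 in SpD, and between 6.02 ± 0.10 (IBA) and 6.16 ± 0.07 (LAr) in the others.

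The study kept a gene only if some group had at least 4 animals with rlog values of 7 or more. In the corrected values Hgd met this through SA alone, so its differences that involve SA are given as descriptions without a test. The study filtered before batch correction, so the groups that passed Hgd there are not known. SA minus the mean of Ent, EAr, and LAr was 1.70 for Hgd (SE 0.25) and 1.62 in experiment 2 alone, and SA/SpD was 0.62 (SE 0.33). SpD fell short in the corrected values, as 3 of its animals reached 7. Whether it helped to pass Hgd before correction is unknown, so tests of Hgd that involve SpD may not be free of the filter. SpD minus the mean of Ent, EAr, and LAr was 1.09 (SE 0.24, q = 0.00257), a 2.12-fold higher level that passed 0.05 but not 0.001. It was 1.32 (q = 0.00346) without animal 130 and 0.74 (q = 0.054) in experiment 2 alone. SpD/IBA was 1.28 (SE 0.28, q = 0.00399), with 1.35 (q = 0.108) in experiment 1 and 0.97 (q = 0.132) in experiment 2. Hgd was also the gene that passed 0.05 across SpD, Ent, EAr, and LAr (q = 0.0132), and within hibernation no difference passed either threshold (Ent/IBA 0.05, q = 0.928; EAr/Ent 0.24, q = 0.849; LAr/EAr -0.02, q = 0.992; IBA/LAr -0.26, q = 0.577).

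**Figure D2:**
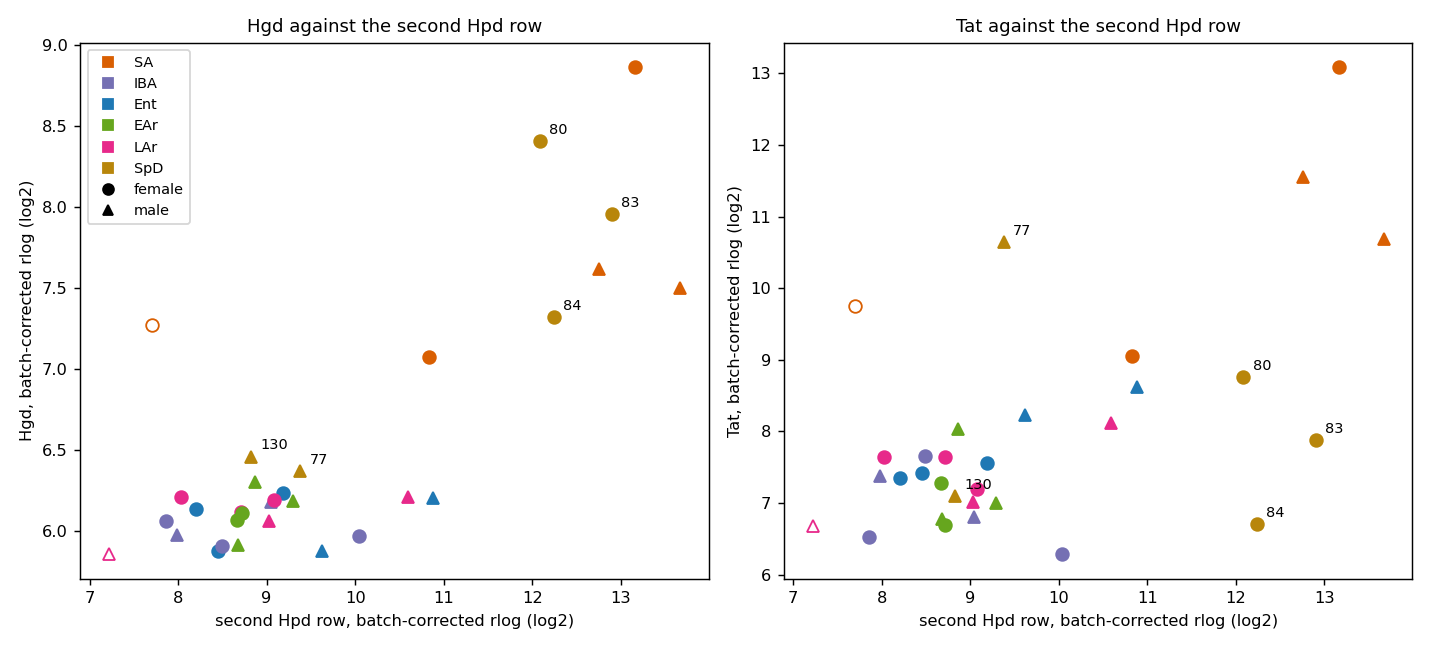
Hgd (left) and Tat (right) against the second Hpd row, batch-corrected rlog values on the log2 scale, 1 point per kidney coloured by state, circles for females and triangles for males, hollow points for animals 113 and 137, with SpD animals numbered. SpD females 80, 83, and 84 lie with SA animals for Hgd and the second Hpd row and SpD males 77 and 130 lie near the hibernating animals, whereas Tat was highest in SpD male 77 (10.64).

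The 5 SpD animals thus fell into different orders in different genes of the pathway. Females 80, 83, and 84 were the highest for Hgd (7.32 to 8.41) and for the second Hpd row (12.09 to 12.91), and males 77 and 130 were the lowest (6.37 to 6.46 and 8.83 to 9.38). For Tat the highest was male 77, at 10.64, and the lowest was female 84, at 6.71. The order for Tat also followed the experiment. Animals 77, 80, and 83, of experiment 1, all lay above animals 84 and 130, of experiment 2. Animal and experiment cannot be told apart there. In SA, where both sexes are also present, males read 7.50 to 7.62 and females 7.07 to 8.86 for Hgd, which overlapped. A term for sex within SpD, added after these values were seen, was -1.40 for Hgd (SE 0.35, q = 0.0968) and 1.01 for Tat (SE 0.88, q = 0.707), male minus female beyond the difference in the other states.

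The last enzymes, Gstz1 and Fah, moved little. Gstz1, the maleylacetoacetate isomerase, read 12.20 (69), 12.08 (70), 12.03 (75), 12.07 (104), and 12.54 (171) in IBA, and 12.66 (77), 12.74 (80), 12.81 (83), 12.66 (84), and 11.94 (130) in SpD. IBA animal 171 lay among Ent, EAr, and LAr animals, which ranged from 12.38 to 12.73, and SpD animal 130 lay under every IBA animal. SpD/IBA was 0.38 (SE 0.12, q = 0.0395), a 1.298-fold higher level, and 0.53 (q = 0.000795) without animal 130. In experiment 1 SpD/IBA was 0.61 (q = 0.0472), and in experiment 2, with animals 84 and 130 against 104 and 171, it was 0.035 (q = 0.937). For Gstz1, IBA/LAr was -0.40 (SE 0.13, q = 0.0397; -0.25, q = 0.35 in experiment 2) and Ent/IBA 0.35 (SE 0.12, q = 0.0533). Fah, fumarylacetoacetate hydrolase, had state means from 12.75 ± 0.27 in IBA to 13.10 ± 0.15 in SA. Fah passed no threshold in the 29 animals, with SpD/IBA at 0.32 (SE 0.14, q = 0.138) and IBA/LAr at -0.36 (SE 0.16, q = 0.116). Without SpD animal 130, SpD/IBA was 0.53 for Fah (q = 0.00129) and SpD minus the mean of Ent, EAr, and LAr was 0.34 (q = 0.0241).

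The cofactor proteins Pcbd1 and Qdpr were lowest in IBA as well. Qdpr, the dihydropteridine reductase, read 12.83 (69), 12.78 (70), 12.90 (75), 12.69 (104), and 13.30 (171) in IBA, against 13.23 (109), 13.45 (111), 13.22 (112), 13.12 (115), and 13.37 (116) in LAr and 12.81 in animal 113. Among the 5 IBA animals, 171 alone reached the range of the LAr animals in the fit. IBA/LAr was -0.50 (SE 0.14, q = 0.0181), a 1.41-fold lower level in IBA, and Ent/IBA was 0.41 (SE 0.13, q = 0.0366). Without animal 171, IBA/LAr was -0.70 (q = 0.000964), and without animal 104 its q was 0.0782. Within 1 experiment neither difference passed: Ent/IBA for Qdpr was 0.50 (q = 0.0957) in experiment 1 and 0.29 (q = 0.511) in experiment 2, and IBA/LAr was -0.32 (q = 0.256) in experiment 2. SpD minus the mean of Ent, EAr, and LAr was -0.25 (SE 0.11, q = 0.108) for Qdpr, -0.50 (q = 0.0179) in experiment 2 alone, and 0.0018 without animal 130. Pcbd1, the pterin carbinolamine dehydratase, read 12.40 (138), 12.66 (139), 12.77 (140), and 12.81 (141) in SA, and 12.08 in animal 137. Ent, EAr, and LAr animals spanned 11.88 to 12.68 for Pcbd1 and overlapped SA. SA minus the mean of Ent, EAr, and LAr was 0.42 for Pcbd1 (SE 0.12, q = 0.00847), a 1.34-fold higher level, with 0.43 (q = 0.0195) in experiment 2 alone, and q was 0.0528 without SA animal 140. Pcbd1 had SA/SpD of 0.43 (SE 0.15, q = 0.0712) and Qdpr had 0.42 (SE 0.15, q = 0.07).

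In IBA/SA, the comparison that chose Tat, the fitted differences were -1.90 for Hgd (SE 0.33), -0.69 for Pcbd1, -0.64 for Qdpr, -0.61 for Gstz1, -0.50 for Hpd, and -0.40 for Fah, with SE of the last 5 between 0.14 and 0.26. The second Hpd row was at -3.91 (SE 0.83). All 7 genes were lower in IBA, with a median of -0.64 beside 0.03 over all genes, of which 45.5% were lower. In the 29 animals SA had the highest and IBA the lowest mean of the 6 states in 7 of 7 genes. With animals 113 and 137 included, SA was highest in 5 of 7, since Hpd was then highest in Ent (14.35 against 14.24 in SA) and Fah in SpD (13.07 against 12.96), and IBA was lowest in 7 of 7. These values describe the animals in which Tat was chosen and are not support for a joint change.

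Over the comparisons, 9 were tested. In SpD minus the mean of Ent, EAr, and LAr, 0 of 7 genes were called by limma at q under 0.001 beside 4.28% of all genes, 1 (Hgd) passed 0.05 beside 26.2%, and 2 had an unadjusted p under 0.05. In SA minus that mean, 0 of the 5 genes other than Tat and Hgd were called beside 7.73% of all genes, 1 (Pcbd1) passed 0.05 beside 30.7%, and 2 had an unadjusted p under 0.05. For SA/SpD, 0 of the same 5 passed either threshold beside 0.0544% and 10.5% of all genes, and 2 had an unadjusted p under 0.05. For SpD/IBA, 0 of 6 were called beside 1.25%, 2 passed 0.05 beside 11.9%, and 3 had an unadjusted p under 0.05, while without animal 130 there were 1 and 5. For Ent/IBA, 0 of 6 were called beside 0.746%, 1 passed 0.05 beside 13.1%, and 2 had an unadjusted p under 0.05. For IBA/LAr, 0 of 6 were called beside 1.43%, 2 passed 0.05 beside 18%, and 4 had an unadjusted p under 0.05. EAr/Ent and LAr/EAr gave 0 of 7 at either threshold, and 0 with an unadjusted p under 0.05, beside 0.132% and 0.257% of all genes for EAr/Ent and 0.295% and 0.575% for LAr/EAr. Across SpD, Ent, EAr, and LAr, 0 of 7 were called beside 2.24%, and 1 passed 0.05 beside 16.1%, as did 1 at an unadjusted p under 0.05. The shares in most comparisons rest on 1 or 2 genes and are read as no more than that.

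**Figure D3:**
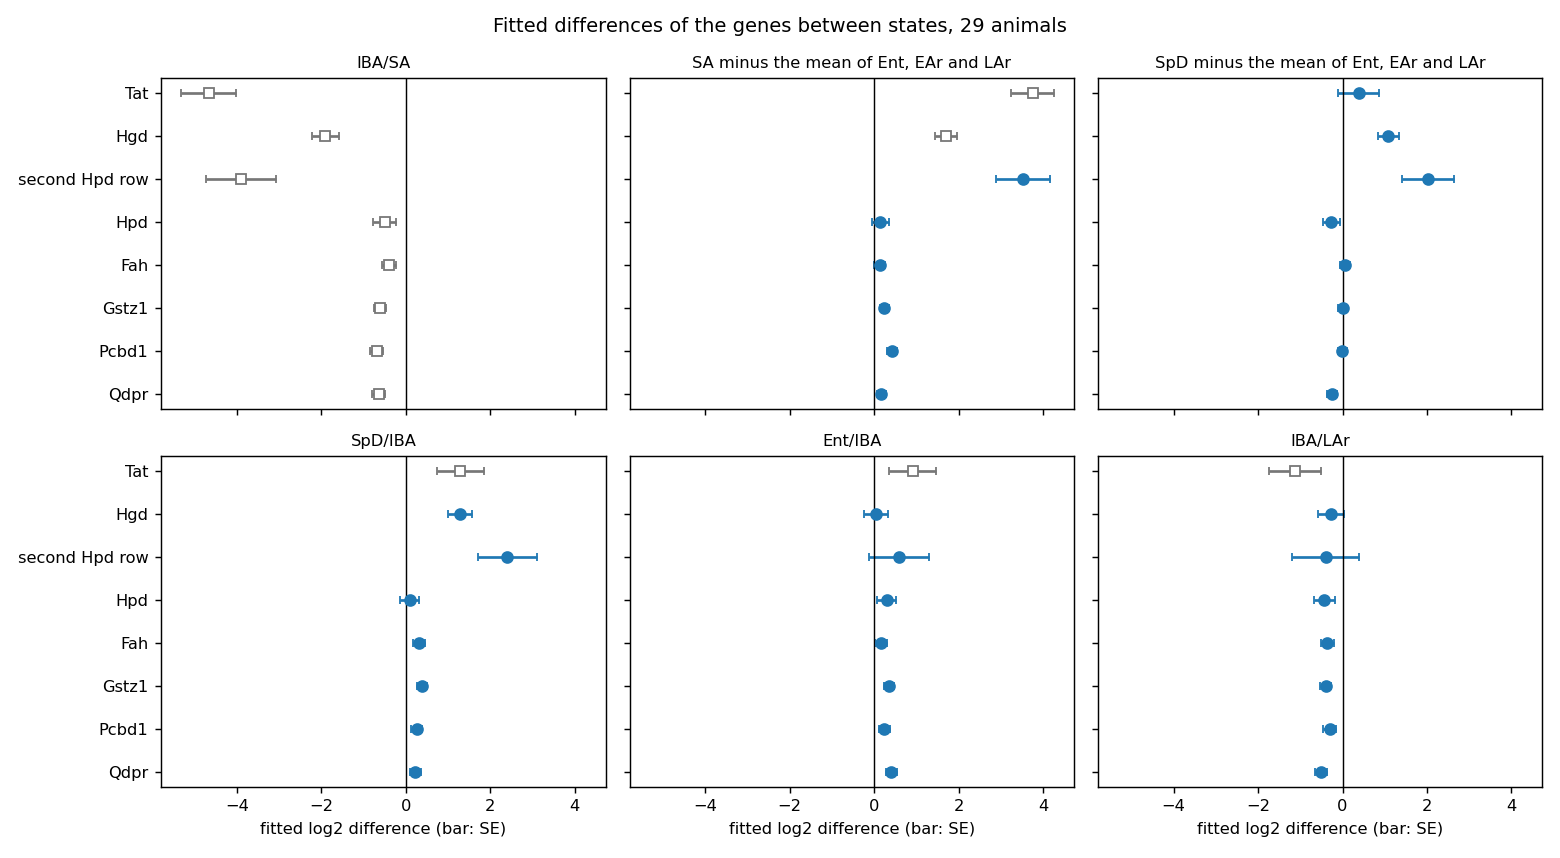
Fitted log2 differences with SE in 6 comparisons of states, 29 animals, for the 7 genes and the second Hpd row, with hollow grey squares for values given without a test and filled blue points for tested ones. Hgd and the second Hpd row lie to the right of 0 in both comparisons of an active state with Ent, EAr, and LAr (Hgd 1.70 and 1.09), while Hpd, Fah, Gstz1, Pcbd1, and Qdpr lie within 0.70 of 0 in all 6.

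Several kidneys stood apart in the genes of the pathway. Animal 113 lay below every other LAr animal in 7 of 7 genes. Animal 137 lay below every other SA animal, and SpD animal 130 below every other SpD animal, in the same 5 genes, Hpd, Fah, Gstz1, Pcbd1, and Qdpr, and both lay among their groups for Tat and Hgd. The proximal tubule, the segment that carries most of these enzymes, was represented by 15 measured markers of 16 listed, whose mean level was 13.57 in animal 130, 13.78 in animal 113, and 14.16 in animal 137. The other SpD animals had 14.53 to 15.09. Over the 29 animals the marker mean was 15.11 ± 0.11 in SA (14.98 to 15.24), 14.25 ± 0.30 in IBA (13.92 to 14.50), 14.53 ± 0.25 in Ent (14.20 to 14.77), 14.68 ± 0.16 in EAr (14.52 to 14.88), 14.62 ± 0.16 in LAr (14.41 to 14.84), and 14.64 ± 0.64 in SpD (13.57 to 15.09). Over these animals SA had the highest and IBA the lowest marker mean, as in the 7 genes, and IBA/SA had a median of -0.96 over the markers. None of the 15 markers was called by limma in a tested comparison, while 5 were higher at q under 0.05 in SA minus the mean of Ent, EAr, and LAr, beside 15.7% of all genes higher and 30.7% in either direction. In SpD minus that mean 2 were higher and 3 lower, beside 14% and 12.2% of all genes. The part of tubule content in the differences of the 7 genes was not tested.

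**Figure D4:**
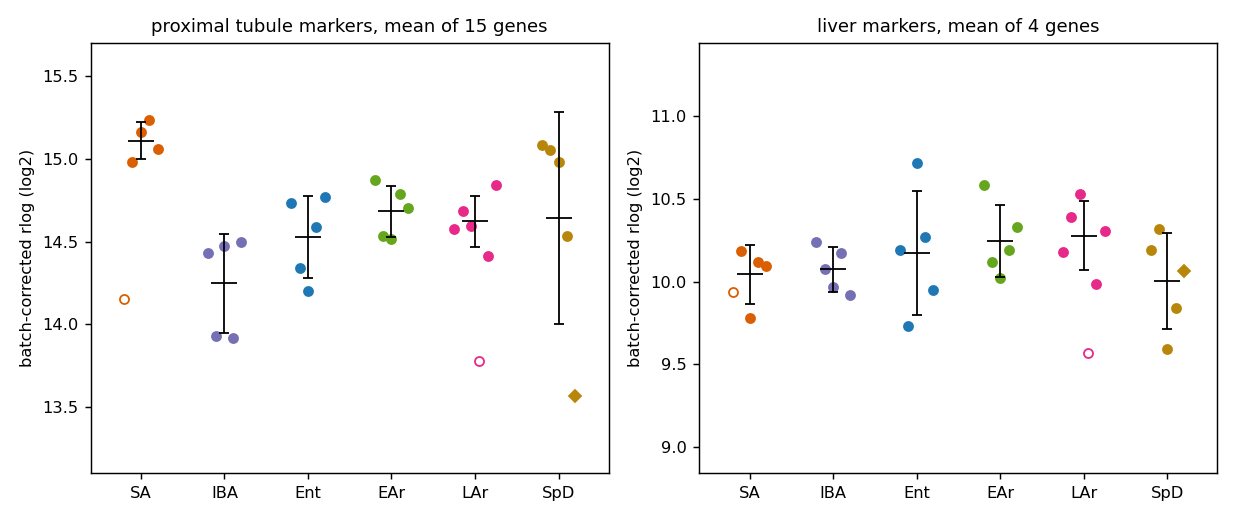
Mean batch-corrected rlog value (log2 scale) of 15 proximal tubule markers (left) and 4 liver markers (right) in each kidney by state, with the mean and SD of the 29 animals as black bars, hollow points for animals 113 and 137, and a diamond for SpD animal 130. Tubule markers have the highest mean in SA (15.11) and the lowest in IBA (14.25), the lowest single animals are SpD 130 (13.57) and LAr 113 (13.78), and 3 IBA animals lie among Ent and LAr animals, while liver markers overlap between all states.

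Liver and adrenal tissue also carry some of these genes or lie near the kidney. Of 13 liver markers 4 were in the table, Alb (albumin), Fga and Fgb (fibrinogen chains), and Hp (haptoglobin), and their mean level ranged from 10.001 in SpD to 10.28 in LAr over the states. In SA minus the mean of Ent, EAr, and LAr, Fga was lower by limma (-1.04, SE 0.18, q = 0.000137), while Fgb was at 0.47 (q = 0.0746), Alb at 0.19 (q = 0.738), and Hp at -0.31 (q = 0.378), so the 4 markers did not share a direction. None of 12 adrenal markers was listed by symbol. Among 15 markers of other kidney cells all were measured and 0 were called in the tested comparisons, with 7 higher at q under 0.05 in SpD minus the mean of Ent, EAr, and LAr beside 14% of all genes.

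Genes next to the pathway were taken from lists written with general knowledge. Of 12 genes around tetrahydrobiopterin, 9 were measured. Akr1c3, an aldo-keto reductase able to reduce pterin precursors, rose in SpD/IBA (0.71, SE 0.09, q = 2.85e-05) and was lower in IBA than LAr (-0.65, SE 0.10, q = 0.000142). It was the 1 called of 9 in each, beside 1.25% and 1.43% of all genes. It belongs to a large gene family, so the identity of its row is uncertain. In SA minus the mean of Ent, EAr, and LAr, 4 of the 9 were higher at q under 0.05 and 1 was lower, beside 15.7% and 15% of all genes. Those higher included Akr1c3 (0.23), Gch1 (0.36), the first enzyme of tetrahydrobiopterin synthesis, and Spr (0.29), the last. The list medians were 0.29 in that comparison and -0.45 in IBA/SA.

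Of 16 genes for other fates of tyrosine and phenylpyruvate, 12 were measured. Maoa, monoamine oxidase A, which breaks down dopamine made from tyrosine, was lower in SpD than the mean of Ent, EAr, and LAr (-0.71, SE 0.10, q = 2.33e-05) and higher in SA than SpD (1.17, SE 0.13, q = 3.27e-05). It was the 1 called of 12 in each comparison, beside 4.28% and 0.0544% of all genes. The direction of Maoa in SpD was opposite to that of Hgd. In SpD minus the mean of Ent, EAr, and LAr 1 was higher and 3 were lower at q under 0.05, beside 14% and 12.2% of all genes. In SA minus that mean 4 were higher and 1 lower, beside 15.7% and 15%. In IBA/LAr 4 of the 12 were lower at q under 0.05 and 0 were higher, beside 8.03% and 9.93% of all genes.

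All 12 genes for the use of fumarate and acetoacetate were measured. Oxct1, which activates acetoacetate for oxidation, was higher in SpD than the mean of Ent, EAr, and LAr (1.26, SE 0.19, q = 8.06e-05), and so was Bdh1, which interconverts the ketone bodies (0.86, SE 0.13, q = 7.61e-05). They were the 2 called of 12 there, beside 2.54% of all genes called higher. In SA minus that mean 3 were called, Bdh1 (0.90, q = 3.31e-05), Fh, the fumarase (0.39, q = 0.000148), and Acat1, the thiolase that splits acetoacetyl-CoA (0.41, q = 0.000802), and 8 of 12 were higher at q under 0.05 with 0 lower. Of all genes 3.97% were called higher in that comparison, 15.7% were higher at q under 0.05, and 15% were lower. The list median was 0.31 there and -0.48 in IBA/SA.

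Of 14 genes for transport of aromatic and other amino acids, 12 were measured. In SA minus the mean of Ent, EAr, and LAr, Cltrn, the partner protein of neutral amino acid transporters at the brush border, was higher (0.87, SE 0.15, q = 0.000127), as was Slc43a2, a neutral amino acid transporter (0.71, SE 0.14, q = 0.000605). These were the 2 called, beside 3.97% of all genes called higher, and 8 of 12 were higher at q under 0.05 with 0 lower, beside 15.7% and 15%. Slc6a20, an imino acid transporter, was higher in SpD than IBA (1.75, SE 0.30, q = 0.000623), the 1 called of 12 there, beside 0.832% of all genes called higher. The list medians were 0.79 in SA minus that mean and -1.02 in IBA/SA, beside 0.0002 and 0.03 over all genes.

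The list of other aminotransferases and related enzymes, most of them with the same kind of reaction as Tat, held the most called genes. Of 17 listed, 16 were measured. In SA minus the mean of Ent, EAr, and LAr 6 of 16 were called, all higher, beside 3.97% of all genes called higher, led by Abat, the GABA transaminase (1.16, SE 0.12, q = 7.92e-07), and Gpt, alanine aminotransferase (0.77, SE 0.09, q = 3.92e-06). In SpD minus that mean 3 were called higher, beside 2.54% of all genes, Bcat2 of branched-chain amino acids (0.89, SE 0.14, q = 0.000156), Gpt (0.55), and Abat (0.69), and 8 were higher and 1 lower at q under 0.05, beside 14% and 12.2%. In SpD/IBA 4 were called higher, beside 0.832% of all genes, Abat (1.10), Gpt (0.84), Agxt2 (0.90), and Psat1 (0.68), and 8 were higher and 0 lower at q under 0.05, beside 6.48% and 5.42%. The list medians in these comparisons were 0.44, 0.37, and 0.41, beside medians within 0.01 of 0 over all genes, and whether this list differs from Tat was not tested.

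Of 28 genes responsive to glucocorticoids, cyclic AMP, or fasting, the signals best known to act on Tat, 22 were measured. Tsc22d3, a glucocorticoid-induced leucine zipper protein, was higher in SpD than the mean of Ent, EAr, and LAr (1.22, SE 0.23, q = 0.000597). It was the 1 called of 22, beside 4.28% of all genes. At q under 0.05, 6 were higher and 2 lower there, beside 14% and 12.2% of all genes. In SpD/IBA 3 were higher and 1 lower, beside 6.48% and 5.42%. Nr4a1, an early response nuclear receptor, was higher in LAr than EAr (1.32, SE 0.21, q = 0.000655), the 1 called beside 0.295% of all genes. In SA minus the mean of Ent, EAr, and LAr 0 were called by limma. There 4 of 22 were higher at q under 0.05 and 0 lower, beside 15.7% and 15% of all genes. In IBA/SA the list median was -0.11.

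The genes whose values were most like those of Tat were ranked by Pearson's r over the 29 animals among 11943 other genes with a symbol. These r values describe shared state, kit, and animals, and they carry no test. The highest were Pbld (0.85), Ccdc141 (0.83), Gpr155 (0.83), Klf12 (0.83), and Adcy1 (0.83). Hgd ranked 210 (0.68) and the second Hpd row 274 (0.66), while Gstz1 ranked 967, Pcbd1 1229, Qdpr 1334, Fah 1805, and Hpd 2585. With state, sex, and experiment taken out, the highest were Zc4h2 (0.83), Tsku (0.83), Col21a1 (0.82), Ppp1r16b (0.81), and Ppara (0.79), and Hgd had 0.36. Of the first 5, 1 remained among the highest 5 by Spearman's rho, 3 in all 31 animals, and 0 in the 25 animals without SA, where Col21a1 was the highest (0.81).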

How the data were processed

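RNA-Seq of kidneys was analysed from a table of 12863 genes and 31 animals. The authors trimmed reads (cutadapt), took out mitochondrial reads (hisat2), quantified HiC_Itri_2 transcripts (Salmon), summed them to genes (tximport), and filtered low genes. The deposited values are log2-scale rlog values that the authors made with DESeq2 and corrected for batch with limma, so each gene has the same mean in experiments 1 and 2. No depth is given, and precision comes from the spread among animals alone.

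The study tested counts, which were not used here. Instead, limma 3.58.1 (R 4.3.3) was run on 29 animals with terms for state, sex, and experiment, an intensity trend, and Benjamini-Hochberg adjustment over all genes. In the corrected values Hgd reached the level of the filter through SA alone. It was left untested in comparisons with SA, a choice made after the data were seen. Fitted differences adjust for experiment and need not equal those of the printed means. Tested on simulated data of SpD minus the mean of Ent, EAr, and LAr, with 200 of 12863 genes changed, the fit called 93.5% at q under 0.001 for a shift of 1 and 52.5% for 0.5. For IBA/LAr it called 80.5% and 35%. The changed genes were drawn at random, with the same spread in every state. These shares therefore need not hold for Tat, which had an SE of 0.49 in the first comparison and an uneven spread between states.

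The genes, lists, and tests were chosen with earlier results of these data known. Named genes are the 7 genes, up to 4 called genes per list by lowest q, all genes of lists with at most 5 measured, and the 5 most like Tat. Aminotransferases beyond 4 and the tetrahydrobiopterin genes at q under 0.05 were named after their values were seen. Symbols were matched to RefSeq (mIctTri1.hap1, another assembly), so no positions are given. Alternatives were all 31 animals, experiment 2 alone, other model terms (no experiment, no sex, no trend, robust prior, animal weights), a mean level of 8 or more, median centring, the states compared only, q under 0.05, and each animal left out. Added after the data were seen were experiment 1 alone, the second Hpd row, likeness without SA, and sex within SpD. Some genes of the lists are not reported here by name.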

Additional observations from a re-analysis of the deposited data

Results flagged for a closer look

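Among the 48 groups of animals looked at (8 rows of the table in 6 states), the lowest animal was far from the others of its group in 6, and 4 of these were SpD animal 130. A single group passes this limit by chance about 1 time in 20. The rows share the same animals, so the 48 groups are not independent and their count is not set against chance. Animal 130 read 13.12 for Hpd (nearest other SpD animal 14.23), 12.31 for Fah (13.13), 11.94 for Gstz1 (12.66), and 12.35 for Qdpr (13.16). LAr animal 113 read 12.33 for Fah (nearest 12.96), and SA animal 137 read 13.08 for Qdpr (nearest 13.37). The proximal tubule marker means of these 3 animals were also the lowest of their groups, and their part in these values was not tested.

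In SpD the second Hpd row differed between the sexes by more than in the other states. Beyond the sex difference of the other states, males were lower than females by a fitted -4.18 (SE 0.75, limma q = 0.0117). This was looked at after the values were seen, and it rests on 3 females and 2 males. Leaving out either male leaves 1 male to carry the term. It was -3.72 (q = 0.136) without animal 130, and -4.73 without animal 77, where it rests on animal 130, the SpD animal that stood apart in other genes. Over all genes 40 had q under 0.05 for this term in the 29 animals, 14 without animal 130, and 1330 without animal 77. Males 77 and 130 come from different experiments, and females 80 and 83 from experiment 1 and 84 from experiment 2.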

How the results depend on the processing

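Counts of called genes depended on few settings. For SpD minus the mean of Ent, EAr, and LAr, 0 became 1 with no term for experiment and at q under 0.05, and ranged from 0 to 1 with animals left out (1, Hgd, without SA animal 139 or SpD animal 77). For SA minus that mean, 0 became 1 at q under 0.05. For SpD/IBA, 0 became 2 with animal weights and 2 at q under 0.05, and ranged from 0 to 1 with animals left out (1, Gstz1, without SpD animal 130). For Ent/IBA, 0 became 1 with animal weights and 1 at q under 0.05. For IBA/LAr, 0 became 2 at q under 0.05 and ranged from 0 to 1 (1, Qdpr, without IBA animal 171). Across SpD, Ent, EAr, and LAr, 0 became 1 at q under 0.05. The cause of the changes with animal weights and with no term for experiment was not tested. Reversals were seen for Qdpr in SpD minus the mean of Ent, EAr, and LAr, which was 0.0018 without SpD animal 130 and otherwise as low as -0.30 with animals left out, and for Fah, from 0.32 to -0.022 in SpD/IBA in experiment 2 alone. Of the recomputed differences of single genes, 9 passed 0.001 where the reported one did not, 4 no longer passed (SA minus the mean of Ent, EAr, and LAr of the second Hpd row), 2 untested ones moved by more than 1 SD, and 1273 kept their direction and their side of 0.001 or moved by less. Counts and medians otherwise stayed as reported in 388 recomputations.

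At q under 0.05, the count of genes in SpD/IBA ran from 1 to 5 with animals left out and was 0 in experiment 2 alone, and that in IBA/LAr ran from 0 to 4 and was 0 in all 31 animals and in experiment 2 alone. EAr/Ent and LAr/EAr stayed at 0 at either threshold under every alternative run for them. No paired analysis was possible because the states share no replicate numbers.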

Other observations

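Within IBA, animal 171 had the highest value of the 5 animals for Hpd (14.55), Fah (13.09), Gstz1 (12.54), Pcbd1 (12.39), Qdpr (13.30), and the second Hpd row (10.04), but the lowest for Tat (6.28). Within Ent, male 167 was highest for Tat (8.62), Hpd (14.70), Fah (13.12), and the second Hpd row (10.88). Within LAr, male 116 was highest for Tat (8.12), Hgd (6.21), Fah (13.20), Gstz1 (12.69), Pcbd1 (12.42), and the second Hpd row (10.59). These are single animals and no test was made of them.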
